A study of Mus musculus with 8 samples.

Results

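The T cell receptor complex and its proximal adaptors were followed through 9 genes: Cd3d, Cd3e, Cd3g, Cd247, Lck, Zap70, Lat, Sit1 and Ptprcap. Every probe carrying one of these symbols, or an older name of it, was taken, which gave 14 of the 25697 probes of the Illumina MouseRef-8 v2.0 bead array. Cd247 and Zap70 had 3 probes each, Sit1 had 2 and the other 6 genes had 1. The members are defined by gene name, and they were chosen with earlier results of these arrays known.

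Messenger RNA was measured on 8 arrays of CD4+ T cells sorted by flow cytometry from mesenteric lymph nodes, the nodes that drain the gut. The mice were Mir-21-/- (knockout, KO) or littermates (wild type, WT), and each genotype gave a CD4+CD25High and a CD4+CD45High population. Stimulated cells were given CD3 and CD28 antibodies for 30 min before RNA was isolated, and the other cells received no stimulation. Every combination of genotype, population and stimulation state was measured on 1 array, with no repeat. The number of mice behind an array, their age and sex, and the CD45 isoform used in the sort were not stated in the labels. CD25 is a chain of the receptor for interleukin 2 and marks most regulatory T cells.

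The alpha and beta chains of the T cell receptor recognise antigen but lack long signalling tails, and the receptor depends on the CD3 gamma, delta and epsilon chains and the zeta chain for signalling. On engagement the kinase Lck phosphorylates tyrosine motifs in these chains, the kinase ZAP-70 docks on them, and ZAP-70 phosphorylates the scaffold LAT, from which calcium, Ras and NF-kappaB signals start. SIT, the product of Sit1, is a transmembrane adaptor that dampens receptor signalling, and the product of Ptprcap associates with the phosphatase CD45, which keeps Lck available for activation.

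Sequences are shown for the microRNA of the deleted gene, with its seed (bases 2 to 8) in capitals, and for the promoter of Sit1, the member whose messenger RNA passed the test both after stimulation and between populations. Both come from RefSeq on GRCm38.p6. The microRNA lies at chr11:86584120-86584141 on the minus strand. The promoter window lies at chr4:43483660-43483959 on the minus strand, from 250 bases before the annotated start to 50 after it, with the ETS core match in capitals.
mmu-miR-21a-5p: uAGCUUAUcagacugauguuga
Sit1 promoter: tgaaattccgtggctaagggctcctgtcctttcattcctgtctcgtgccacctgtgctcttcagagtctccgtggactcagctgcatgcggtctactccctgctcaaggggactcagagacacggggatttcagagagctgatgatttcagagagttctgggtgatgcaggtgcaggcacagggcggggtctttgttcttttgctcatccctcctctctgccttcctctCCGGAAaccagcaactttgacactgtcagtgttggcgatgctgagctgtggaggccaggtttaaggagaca

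Core motifs of 4 kinds were searched on both strands, and no member window held more than 1 match, so that none overlapped. The ETS core, CCGGAA, was present in 14.9% of all 32851 promoter windows of the same length. The RUNX core, TGTGGT, was present in 16.8%. The AP-1 motif, TGANTCA, was present in 7.81%. The TATA box, TATAAA, was present in 13.6%. The Sit1 window held 1 match of the ETS core and none of the other motifs. Of the 9 members 8 had a promoter window, 11 windows in all, and Ptprcap had none. The ETS core was also found in 1 of the 3 Zap70 windows, and the RUNX core in 1 Lck, 1 Zap70 and 1 Lat window. The windows of Cd3d, Cd3e, Cd3g and Cd247 held none of the 4 motifs. A match describes the letters only, and its absence says only that these letters are not in the window.

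The intensities were background corrected and quantile normalised to log2 levels, and each difference below is a difference of log2 levels. A probe counted as called where limma gave it a p under 0.05 after Benjamini-Hochberg adjustment over the 11047 probes that were tested. Of the 14 member probes, 11 were detected on all 8 arrays (detection p under 0.01) and 3 on 7, and all 14 passed the filter for testing. The standard error over beads was 1.87 to 9.07% of a member's intensity, with at least 19 beads behind each value. The knockout CD25High stimulated array stood apart: 9208 probes were detected on it against 9543 to 10477 on the others, and its median correlation with the other arrays, across probes, was 0.888 against 0.938 to 0.965. All 3 undetected member values were on it, so results are also given without it. The table used held no probe under the symbol Mir21, so the deletion itself was not measured. The regulatory T cell markers had a summed level of 12.7 to 13.6 log2 in CD25High and 9.41 to 11.1 log2 in CD45High cells. All 5 of 5 T cell markers with a probe were detected on every array, and Cd4 had the lowest levels among them, 5.48 to 7.08 log2.

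**Figure D1:**
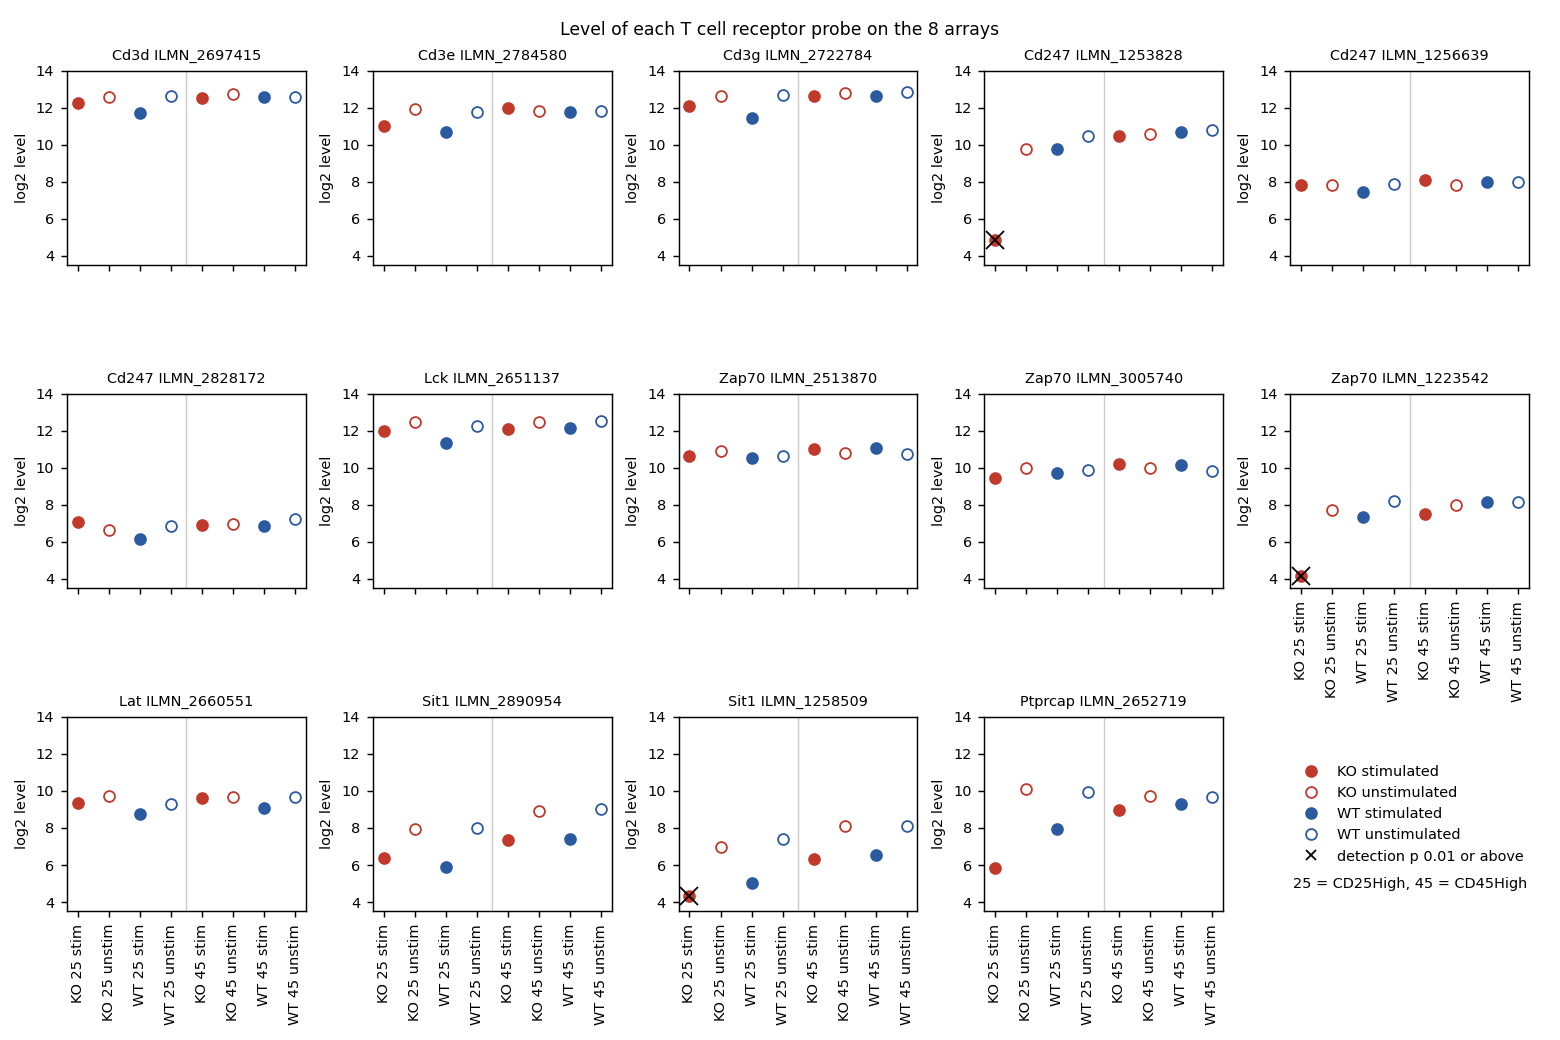
Log2 level (vertical axes) of each of the 14 member probes on the 8 arrays (horizontal axes, stim for stimulated and unstim for unstimulated), with 1 point per array and no error bars because no combination was repeated. Crosses mark the 3 values that were not detected, all on the knockout CD25High stimulated array, and in both Sit1 panels every stimulated point lies below the unstimulated point of the same genotype and population.

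The members differed in how much they varied. The levels of the probes of Cd3d, Cd3e, Cd3g, Lck and Lat spanned 0.98 to 1.36 log2 over the 8 arrays. Sit1 spanned 3.12 log2 with its first probe, ILMN_2890954, and 3.81 with its second, ILMN_1258509. Ptprcap spanned 4.31, ILMN_1253828 of Cd247 5.96 and ILMN_1223542 of Zap70 4.004. Without the knockout CD25High stimulated array, where the second Sit1 probe and these Cd247 and Zap70 probes were not detected, the spans were 3.12 and 3.08 for Sit1, 2.17 for Ptprcap, 1.07 for the Cd247 probe and 0.87 for the Zap70 probe. The other Cd247 and Zap70 probes spanned 0.51 to 1.05 over the 8 arrays. The SD over the 7 arrays without the knockout CD25High stimulated one was 1.06 and 1.09 for the Sit1 probes and 0.75 for Ptprcap. The lowest value of 9 member probes was on the wild-type CD25High stimulated array and that of the other 5 on the knockout CD25High stimulated array. Every member probe thus had its lowest level in stimulated CD25High cells. The share of all probes tested that had their lowest level there was not counted, so this is not read as particular to the members. The same arrays had the lowest median correlations with the others, 0.938 for wild type and 0.888 for knockout. With 1 array per combination, neighbours in the order of levels cannot be tested against each other.

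Stimulation gave the largest differences that were called among the members. Sit1, which encodes the dampening adaptor SIT, fell after stimulation in all 4 matched pairs with both of its probes. It was the only member called. Ptprcap, Lck, Lat and the CD3 chains had mean differences below 0 that did not pass the test, and 2 of the 3 Zap70 probes had differences close to 0. In CD25High cells the B cell markers summed to 10.1 and 9.82 log2 in stimulated knockout and wild type, against 9.47 and 9.40 log2 unstimulated. In CD45High cells they summed to 7.84 and 8.03 log2 in stimulated knockout and wild type, against 8.08 and 7.76 log2 unstimulated. The T cell markers, 3 of 5 of them members, summed to 13.9 and 13.4 log2 in stimulated knockout and wild-type CD25High cells, against 14.3 log2 in both unstimulated. In CD45High cells they summed to 14.2 and 14.3 log2 stimulated, against 14.5 log2 in both unstimulated. The part of other cells in the stimulation differences was not tested. In bulk samples fewer cells of a type and less messenger RNA per cell cannot be told apart.

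The first Sit1 probe, ILMN_2890954, had log2 levels of 6.36 and 5.91 in stimulated knockout and wild-type CD25High cells and 7.36 and 7.40 in stimulated knockout and wild-type CD45High cells. The unstimulated cells of the same genotypes and populations had 7.92, 8.01, 8.91 and 9.03. All stimulated arrays lay below all unstimulated arrays, and within each state the CD25High arrays lay below the CD45High arrays. The mean was 6.76 ± 0.74 in stimulated and 8.47 ± 0.59 in unstimulated cells (SD, 4 arrays each). The difference was -1.71 (SE 0.14, 4 pairs), 3.28-fold lower after stimulation, with a limma adjusted p of 0.00573.

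The second Sit1 probe, ILMN_1258509, also separated the stimulation states. It was not detected in stimulated knockout CD25High cells, where its level was 4.31, and had 5.04, 6.31 and 6.53 in stimulated wild-type CD25High, knockout CD45High and wild-type CD45High cells. The unstimulated cells had 6.95 and 7.41 in knockout and wild-type CD25High and 8.12 and 8.10 in knockout and wild-type CD45High cells. Stimulated and unstimulated arrays did not overlap. The difference was -2.10 (SE 0.20, 4 pairs), 4.28-fold lower, with a limma adjusted p of 0.00628, and in the knockout CD25High pair the fall was at least 3.83-fold. The levels of the 2 Sit1 probes correlated at 0.96 over 8 arrays and at 0.99 over the 7 without the knockout CD25High stimulated array.

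Over all probes tested, 16% were called after stimulation, 8.1% lower and 7.93% higher, and 2 of the 14 member probes were called, both lower and both of Sit1. Of the member probes, 13 of 14 had a mean difference below 0, with a median of -0.49, against a median of -0.002 over all probes tested. The sign was below 0 in all 4 pairs for 8 of the 14 member probes, where 21.8% of all probes tested did the same, and above 0 in all 4 for none, where 21.9% did. Stimulated and unstimulated arrays did not overlap for 5 member probes, all lower after stimulation, against 9.5% of all probes tested: Cd3d, Lck, Ptprcap and both Sit1 probes. Without the knockout CD25High pair, which holds the array that stood apart, 4 member probes were called, Lck and Ptprcap besides those of Sit1. The shares above are from the fit with all pairs. How many of all probes tested were called changed widely between fits without a pair, over the range given in the last section. The count of 4 is therefore not read as a result about the members. Without the wild-type CD25High pair 0 of all probes tested were called by limma, although 2516 had an unadjusted p under 0.05, and the Sit1 probes had -1.58 and -2.01, each with an adjusted p of 0.0585.

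**Figure D2:**
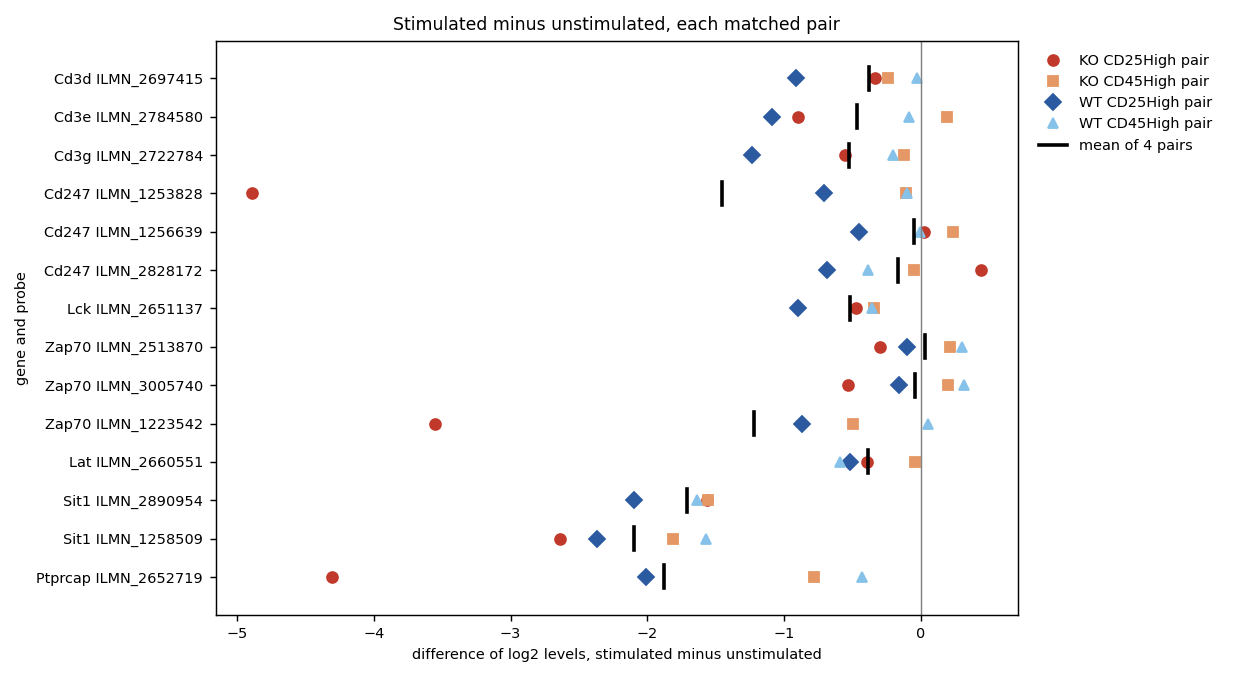
Difference of log2 levels, stimulated minus unstimulated (horizontal axis), for each of the 14 member probes (vertical axis), with 1 symbol per matched pair and a bar at the mean of the 4 pairs. All 4 Sit1 symbols lie between -2.64 and -1.56 for both probes, while the knockout CD25High pair lies far below the others for ILMN_1253828 of Cd247, ILMN_1223542 of Zap70 and Ptprcap.

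Ptprcap, whose product associates with CD45, had log2 levels of 5.82 and 7.95 in stimulated knockout and wild-type CD25High cells and 8.95 and 9.27 in stimulated knockout and wild-type CD45High cells. The unstimulated cells had 10.12 and 9.96 in knockout and wild-type CD25High and 9.73 and 9.70 in knockout and wild-type CD45High cells. Every stimulated array lay below every unstimulated array, and the unstimulated arrays spanned less than the stimulated ones. The mean difference was -1.88 (SE 0.61, 4 pairs), with a limma adjusted p of 0.0827, so it was not called. The pair differences were -4.31 and -2.01 in knockout and wild-type CD25High cells and -0.78 and -0.43 in knockout and wild-type CD45High cells. Without the knockout CD25High pair the difference was -1.07, with a limma adjusted p of 0.0300.

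Lck, the kinase that phosphorylates the receptor chains, had log2 levels of 12.01, 11.35, 12.11 and 12.16 in stimulated cells (knockout and wild-type CD25High, then knockout and wild-type CD45High). In unstimulated cells the levels in the same order were 12.48, 12.25, 12.45 and 12.52. The 2 sets of arrays did not overlap. The difference was -0.52 (SE 0.14, 4 pairs), with a limma adjusted p of 0.0559. It was called under 5 of the 8 alternative settings, at adjusted p of 0.0176 to 0.0360, and without the knockout CD25High pair at -0.53 with a limma adjusted p of 0.0464.

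Lat, the scaffold phosphorylated by ZAP-70, had 9.35, 8.77, 9.64 and 9.10 in stimulated cells in that order and 9.75, 9.28, 9.68 and 9.70 in unstimulated cells. The groups overlapped, since the stimulated knockout CD45High array lay above the unstimulated wild-type CD25High array. The difference was -0.39 (SE 0.14), with a limma adjusted p of 0.107.

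The CD3 chains had pair differences of -0.24 to 0.19 in CD45High cells and of -1.23 to -0.33 in CD25High cells, and none was called. Cd3d in knockout cells differed little between the populations, with -0.24 in CD45High and -0.33 in CD25High. Cd3e had 11.00 and 10.68 in stimulated knockout and wild-type CD25High cells, against 11.90 and 11.77 in unstimulated ones. In CD45High cells it had 11.999 and 11.75 in stimulated knockout and wild type, against 11.81 and 11.84 unstimulated. The pair differences were thus -0.90 and -1.09 in CD25High and 0.19 and -0.08 in CD45High cells, and the mean of -0.47 (SE 0.24) had a limma adjusted p of 0.211.

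Cd3g had 12.07 and 11.47 in stimulated knockout and wild-type CD25High cells, against 12.63 and 12.70 unstimulated. In CD45High cells its levels were 12.64 and 12.63 in stimulated knockout and wild type, against 12.77 and 12.83 unstimulated. Each stimulated array lay below its unstimulated partner, most in wild-type CD25High cells. Cd3d had 12.24 and 11.73 in stimulated knockout and wild-type CD25High cells, against 12.57 and 12.64 unstimulated, and in CD45High cells 12.51 and 12.55 stimulated against 12.74 and 12.58 unstimulated. The mean differences were -0.53 (SE 0.20) for Cd3g and -0.38 (SE 0.17) for Cd3d, with limma adjusted p of 0.125 and 0.169. These 3 genes lie next to each other, with 0 other genes starting between Cd3g and Cd3e in the gene table of GRCm38.p6. Over the 8 arrays their levels correlated at 0.91 to 0.98, arrays which share populations and normalisation.

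The probes of Cd247, which encodes the zeta chain, disagreed with each other. ILMN_1253828 had a level of 4.85 in stimulated knockout CD25High cells, where it was not detected, and 9.77, 10.50 and 10.71 in stimulated wild-type CD25High, knockout CD45High and wild-type CD45High cells. The unstimulated cells had 9.74, 10.48, 10.60 and 10.81. In knockout CD25High cells the level was at least 26.5-fold lower after stimulation. ILMN_1256639 lay at 7.85 on that same array and between 7.44 and 8.08 on all 8, and ILMN_2828172 lay at 7.08 there and between 6.18 and 7.23 on all 8. The mean differences were -1.45, -0.05 and -0.17, and none was called (limma adjusted p of 0.241 to 0.838). The first probe correlated with the others at 0.18 and -0.13 over 8 arrays and at 0.74 and 0.86 over the 7 without the knockout CD25High stimulated array.

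Zap70 showed the same split. ILMN_1223542 was not detected in stimulated knockout CD25High cells, at a level of 4.18, against 7.74 unstimulated, at least 6.61-fold lower. On the other 7 arrays it lay between 7.32 and 8.19. ILMN_2513870 had 10.63, 10.54, 11.00 and 11.05 in stimulated cells (knockout and wild-type CD25High, then knockout and wild-type CD45High), against 10.93, 10.64, 10.79 and 10.75 in unstimulated cells. ILMN_3005740 had 9.47, 9.72, 10.19 and 10.17 stimulated, against 10.004, 9.88, 9.99 and 9.85 unstimulated. Both were lower in stimulated CD25High cells and higher in stimulated CD45High cells than in their partners, with mean differences of 0.03 and -0.05 and limma adjusted p of 0.906 and 0.871.

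Probes of one gene parted on the knockout CD25High stimulated array well beyond the members. Among 2102 genes with 2 or more probes tested, 186 had probes over 2 log2 apart in their stimulation difference in the knockout CD25High pair, against 1 to 6 in the other 3 pairs. Where on the transcripts these probes lie was not analysed here, and the part of the array in the Cd247 and Zap70 values was not tested.

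The difference in the response of the populations to stimulation was itself tested, as stimulated minus unstimulated in CD25High less the same in CD45High. It was below 0 for 13 of the 14 member probes, with a median of -0.55 against 0.02 over all probes tested. By limma 3 of the 14 member probes had an unadjusted p under 0.05, as did 1047 of all 11047 probes tested. Cd3e had -1.05 (SE 0.25) and Ptprcap -2.56 (SE 0.72), with limma adjusted p of 0.438 and 0.456 and unadjusted p of 0.00608 and 0.0126. The third was ILMN_1258509 of Sit1, with -0.81 (SE 0.25, limma unadjusted p 0.0190, adjusted p 0.477). The other Sit1 probe had -0.23 (SE 0.28, limma unadjusted p 0.433). Of all probes tested 0 were called, and the fit had 2 residual degrees of freedom. The lower values in CD25High cells are therefore not calls. In simulated data this test found 0% of the built-in differences of up to 2 log2, so its lack of calls cannot decide the question. Leaving out a pair leaves 1 pair on one side, whose spread is then assumed to be that of the other side. Calls from such fits are therefore not read as results.

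Other genes of T cell receptor signalling moved in both directions after stimulation. Of 79 genes on 5 lists, 69 had a probe and 58 were tested, by their brightest probe. Of the 58, 6 rose and 9 fell, with a median of -0.19, where 7.93% of all probes tested rose, 8.1% fell and the median was -0.002. These shares are from the fit with all pairs. Without the knockout CD25High pair 8 rose and 13 fell. The number of all probes tested that were called also changed between fits without a pair, over the range given in the last section. The larger counts are therefore not read as a result about these genes. Without the wild-type CD25High pair none was called, and without the knockout CD45High pair 1 was, Cblb. Without the wild-type CD45High pair 8 were called, and with no filter on dim probes 9.

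The genes that rose included negative regulators, but other negative regulators fell, Csk and the member Sit1 among them. Of 5 phosphatases and ubiquitin ligases tested, 2 rose and 0 fell. The other 3, Ptpn6, Ubash3a and Cbl, had mean differences below 0 that were not called, and the median of the list was -0.22. Cblb, a ubiquitin ligase that restrains T cell activation, was 3.31-fold higher in stimulated than in unstimulated cells (difference 1.73, SE 0.17, limma adjusted p 0.00628), and Ptpn22, a phosphatase that acts on Lck and ZAP-70, was 1.99-fold higher (SE 0.11, limma adjusted p 0.00761). Both were higher in 4 of 4 pairs.

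Among 7 kinases, 1 rose and 2 fell. Csk, which inhibits Lck, had a difference of -0.76 and Prkcq, protein kinase C theta, had -0.89 (SE 0.16 and 0.17, limma adjusted p of 0.0272 and 0.0225). Among 19 adaptors, 0 rose and 3 fell. Tespa1, a protein of thymocyte receptor signalling, had -1.15, Grap2, the adaptor GADS that links LAT to SLP-76, had -0.92, and Vav1, an exchange factor for Rac, had -0.59 (SE 0.12 to 0.24, limma adjusted p of 0.0113 to 0.0264). Grap2 was not detected in stimulated knockout CD25High cells (level 4.95, detection p 0.0125), so its mean includes a pair that holds only as a bound.

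Downstream of LAT, 3 of 21 genes rose and 3 fell. Orai1, the pore of the calcium channel, had a difference of 1.36 and Bcl10, which works upstream of NF-kappaB, 0.69 (SE 0.17 each, limma adjusted p of 0.00910 and 0.0412). Among 6 receptor chains and coreceptors tested, 0 rose and 1 fell, Cd8b1, at -0.63 (SE 0.12, limma adjusted p 0.0217). Cd8b1 was detected on all 8 arrays of these CD4+ cells, while Cd8a, the partner chain, was detected on 0.

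**Figure D3:**
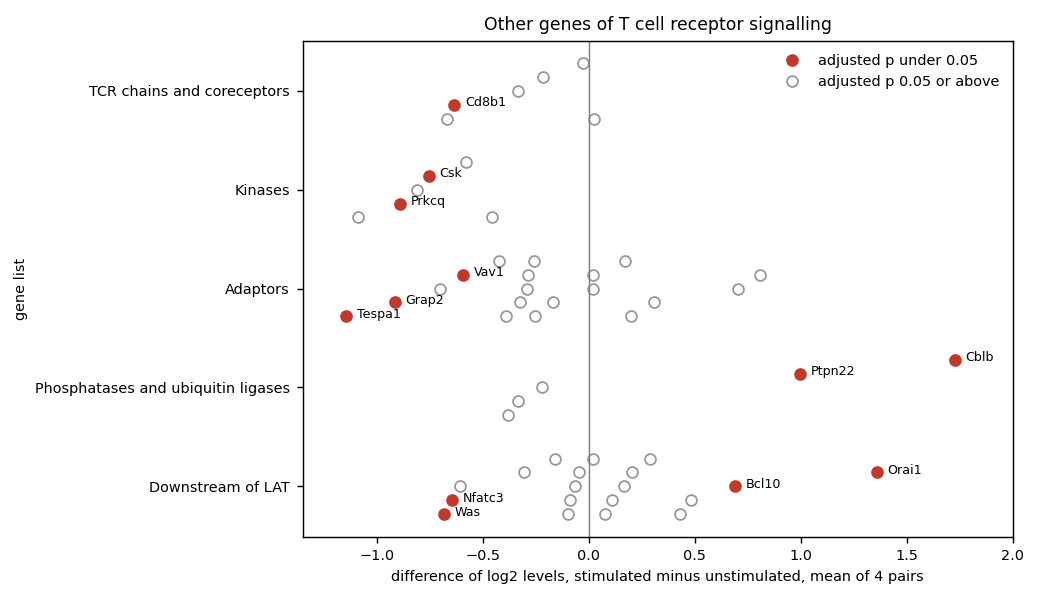
Difference of log2 levels, stimulated minus unstimulated, mean of 4 pairs (horizontal axis), for 55 of the other T cell receptor signalling genes tested, in rows by gene list and spread vertically within a row for legibility. Filled points are the 12 of them called by limma, from Cblb at 1.73 to Tespa1 at -1.15, and open points are those not called.

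Between the sorted populations, Sit1 was again the only member called. It was lower in CD25High than in CD45High cells in all 4 matched pairs with both probes. The remaining members had mean differences below 0 that were not called. CD25High cells also carried more RNA of B cell markers, with a summed level of 9.40 to 10.1 log2 in CD25High and 7.76 to 8.08 log2 in CD45High cells (4 of 6 markers with a probe, 3 to 4 detected in CD25High and 2 to 3 in CD45High). Myeloid and dendritic markers summed to 8.75 to 9.34 log2 in CD25High and 7.46 to 8.69 log2 in CD45High cells, with 4 to 5 of 8 markers detected in CD25High and 1 to 4 in CD45High, and with Itgam and Cd14 detected on no array. The 5 T cell markers, 3 of them members, summed to 13.4 to 14.3 log2 in CD25High and 14.2 to 14.5 log2 in CD45High cells. The part of these other cells in the differences between populations was not tested.

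For Sit1, ILMN_2890954 had a mean level of 7.05 ± 1.07 in CD25High and 8.18 ± 0.92 in CD45High cells (SD, 4 arrays each, stimulated and unstimulated together, so that the groups overlap). Within matched pairs the difference was -0.998 in stimulated and -0.99 in unstimulated knockout cells, and -1.49 in stimulated and -1.03 in unstimulated wild-type cells. The mean was -1.13 (SE 0.14), 2.18-fold lower in CD25High cells, with a limma adjusted p of 0.00739. ILMN_1258509 had pair differences of -1.997, -1.17, -1.50 and -0.70 in the same order and a mean of -1.34 (SE 0.22), 2.53-fold lower, with a limma adjusted p of 0.0178. In the stimulated knockout pair, where the CD25High value was not detected, the probe was at least 2.45-fold lower.

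Over all probes tested, 8.29% were called between populations, 2.89% lower and 5.4% higher in CD25High, and 2 of the 14 member probes were called, both lower. All 14 member probes had mean differences below 0, with a median of -0.40 against -0.03 over all probes tested. The sign was below 0 in all 4 pairs for 5 of them, against 19% of all probes tested, and above 0 in all 4 for none, against 16.7%. CD25High and CD45High arrays did not overlap for 1 member probe, ILMN_1253828 of Cd247, where 5.58% of all probes tested did the same with lower and 6.72% with higher levels in CD25High. That probe had a difference of -1.94 (limma adjusted p 0.225) and, without the stimulated knockout pair, of -0.71 (limma adjusted p 0.0297). Without that pair 3 member probes were called, and without one of the other pairs 1 or 2. The number of all probes tested that were called also changed between these fits, over the range given in the last section. These counts are therefore not read as results about the members. ILMN_1258509 of Sit1 lost its call without the unstimulated knockout pair (adjusted p 0.0770), without the stimulated wild-type pair (0.105) and with no filter on dim probes (0.0712), all by limma, while ILMN_2890954 was called under each of these.

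Relative to CD45High cells, Cd3e and Ptprcap had lower values in CD25High cells in the stimulated pairs than in the unstimulated ones. The test of that difference, given above with stimulation, called neither, but it found 0% of the differences built into simulated data. Cd3e was at 11.00 and 10.68 in stimulated knockout and wild-type CD25High cells, against 11.999 and 11.75 in stimulated CD45High cells. Unstimulated, it was at 11.90 and 11.77 in CD25High, against 11.81 and 11.84 in CD45High cells. Ptprcap was lower in stimulated CD25High cells by pair differences of -3.13 in knockout and -1.32 in wild type, and had 0.39 and 0.26 in the unstimulated pairs. Their mean differences were -0.51 (SE 0.24) and -0.95 (SE 0.58), with limma adjusted p of 0.243 and 0.358.

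**Figure D4:**
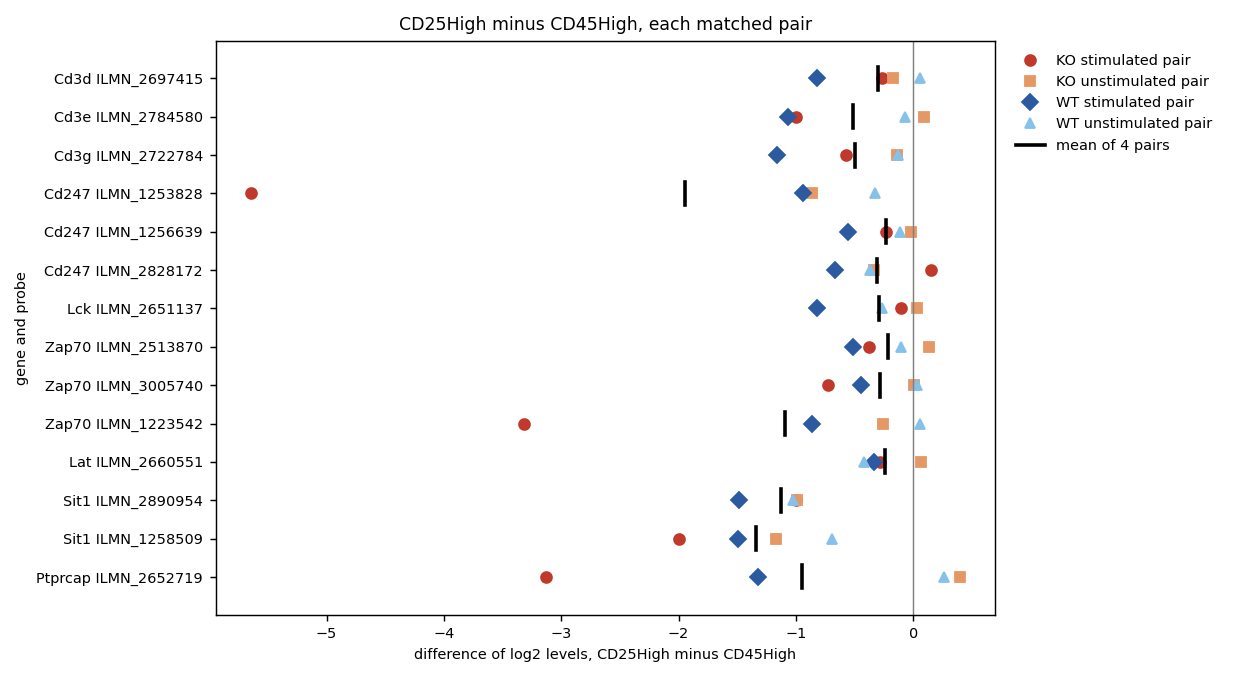
Difference of log2 levels, CD25High minus CD45High (horizontal axis), for each of the 14 member probes (vertical axis), with 1 symbol per matched pair and a bar at the mean of the 4 pairs. All Sit1 symbols lie at -0.70 or below, while Ptprcap has both unstimulated pairs above 0 and both stimulated pairs below it.

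Among the other signalling genes, 0 of 58 were higher and 3 were lower in CD25High cells, all of them adaptors, where 5.4% of all probes tested were higher and 2.89% lower. Themis, an adaptor of thymocyte selection, had a difference of -1.20, Grap2 -1.13 and Trat1, an adaptor that stabilises the receptor at the surface, -0.80 (SE 0.17 to 0.27, limma adjusted p of 0.0179 to 0.0449). Grap2 was not detected in stimulated knockout CD25High cells, so its mean includes a pair that holds only as a bound. Without the stimulated knockout pair 1 was higher, Ppp3ca, a calcineurin subunit, and 6 were lower, and these included all 3. The number of all probes tested that were called also changed between fits without a pair, so the shares above do not apply to these counts. Without the unstimulated knockout pair or without the stimulated wild-type pair none was called, with no filter on dim probes none was, and without the unstimulated wild-type pair only Grap2 was.

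Between genotypes no member was called. By limma 0 of 11047 probes were called, 0% of those tested, and 1083 had an unadjusted p under 0.05, of which 1 was a member probe. That probe was Lat, the scaffold phosphorylated by ZAP-70. The lowest adjusted p of all probes tested was 0.493.

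Lat had 9.35 in knockout and 8.77 in wild-type stimulated CD25High cells, and 9.75 in knockout and 9.28 in wild-type unstimulated CD25High cells. In CD45High cells it had 9.64 in knockout and 9.10 in wild-type stimulated cells, and 9.68 in knockout and 9.70 in wild-type unstimulated cells. Lat was thus above wild type in 3 of 4 pairs, and in the last pair the arrays were nearly equal. The difference was 0.39 (SE 0.14, 4 pairs), 1.31-fold, with an unadjusted p of 0.0283 and a limma adjusted p of 0.493. Without the CD25High stimulated pair it was 0.33.

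Of the 14 member probes, 10 had mean differences above 0 and 4 below, with a median of 0.08 against 0.04 over all probes tested. No member probe separated the genotypes on all arrays, as 1.36% of all probes tested did with higher and 1.63% with lower levels in knockout. The sign was below 0 in all 4 pairs for 2 member probes, against 10.1% of all probes tested, and above 0 in all 4 for none, against 13.5%. These 2 were ILMN_1253828 of Cd247, with pair differences of -4.92, -0.74, -0.22 and -0.21, and ILMN_1223542 of Zap70, with -3.14, -0.45, -0.68 and -0.13 (CD25High stimulated and unstimulated, then CD45High stimulated and unstimulated). In stimulated CD25High cells the first was at least 27.0-fold and the second at least 4.94-fold lower in knockout than in wild type.

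These low values were not shared by the other probes of the same genes. In the same pair the other Cd247 probes had 7.85 and 7.08 in knockout, against 7.44 and 6.18 in wild type, and the other Zap70 probes had 10.63 and 9.47 in knockout, against 10.54 and 9.72 in wild type. Without that pair the means were -0.39 for ILMN_1253828 and -0.42 for ILMN_1223542, against -1.52 and -1.10 with it, and Ptprcap had -0.05, against -0.57 with it. Over all 2102 genes with 2 or more probes tested, 230 (10.9%) had probes over 2 log2 apart in the genotype difference of this pair, against 0 or 1 in each of the other pairs. The SD of the genotype difference over all probes tested was 0.817 in this pair and 0.234 to 0.2998 in the others.

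**Figure D5:**
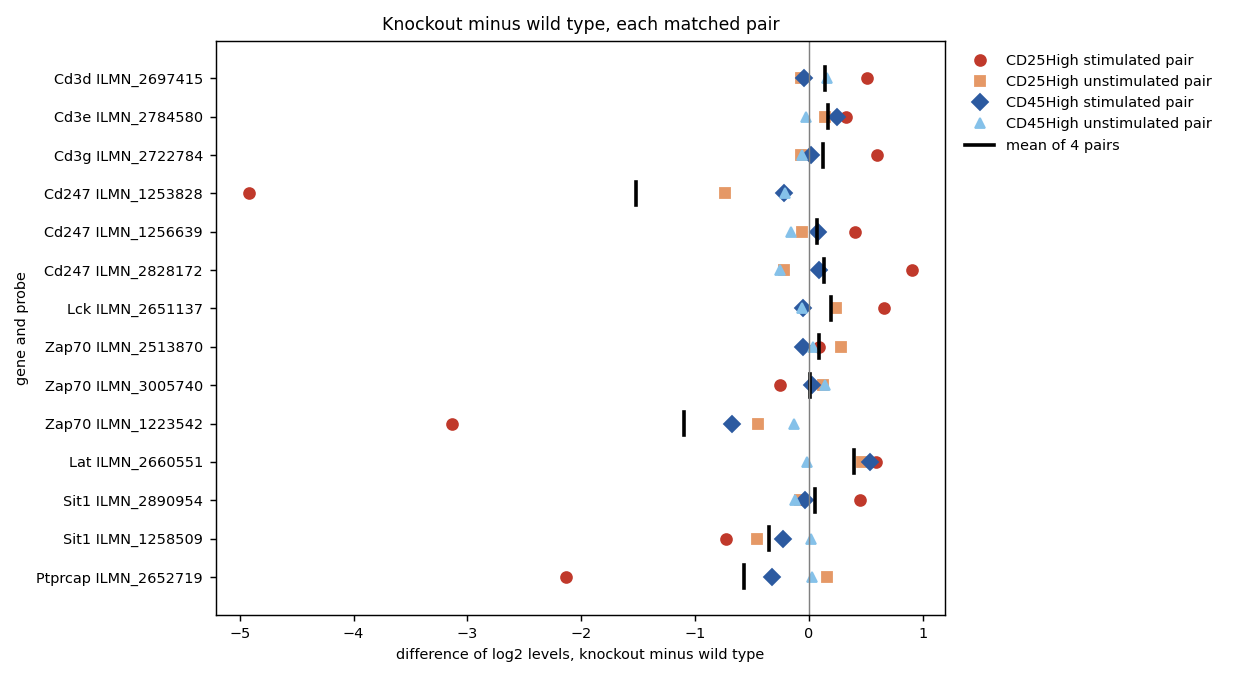
Difference of log2 levels, knockout minus wild type (horizontal axis), for each of the 14 member probes (vertical axis), with 1 symbol per matched pair and a bar at the mean of the 4 pairs. In the CD25High stimulated pair Cd247 has 1 probe at -4.92 and 2 probes above 0, while the other 3 pairs lie between -0.74 and 0.53 for all member probes.

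Whether the genotype difference itself depended on population or on stimulation was tested in the same way. No member probe was called in either test, and 0 of all probes tested were, with a lowest adjusted p of 0.824 for population and 0.863 for stimulation by limma. In simulated data both tests found 0% of the built-in differences of up to 2 log2, so their lack of calls cannot decide the question. An unadjusted p under 0.05 was found for 398 and 404 of all probes tested and for 0 member probes. Sit1, called in the other comparisons, had genotype differences of 0.05 (SE 0.14) and -0.35 (SE 0.15) with its 2 probes, with limma adjusted p of 0.868 and 0.493. In the other signalling lists 0 of 58 genes were called between genotypes, with a median of 0.03.

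Genes whose levels followed those of the members most closely were looked up among 3924 probes detected on all 8 arrays with an SD of at least 0.3 log2. For the mean profile of the CD3 chains and Cd247, each by its brightest probe, the highest Pearson correlations over 8 arrays were those of Pi4kb (0.990), Araf (0.986), LOC547323 (0.983), Scp2 (0.981) and Ddx6 (0.976). For the mean profile of Lck, Zap70 and Lat they were those of Cyhr1 (0.972), Fgf13 (0.968), Cdk20 (0.963), Sptssa (0.959) and Tmem229b (0.958). Sit1 and Ptprcap were added to this search after their values had been seen. Ankmy2 (0.988), Ccdc125 (0.985) and Runx1 (0.982) were nearest to Sit1, and Pfn1 (0.991), Slc35c2 (0.989) and Gtf3a (0.987) to Ptprcap. These are correlations over arrays that share populations, stimulation and normalisation, and the CD3 and Cd247 profile includes the Cd247 probe that was not detected on 1 array. That probe, ILMN_1253828, had an SD of 1.99 log2 over the 8 arrays, against 0.32 to 0.48 for the CD3 chains. It correlated with them at 0.37 to 0.58. The profile and its nearest genes thus follow this probe more than the CD3 chains, and the search is given with all 8 arrays only. Ptprcap also had its lowest level on the knockout CD25High stimulated array. Its levels spanned 4.31 log2 over the 8 arrays and 2.17 without that array. Its nearest genes without that array were not looked up.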

How the data were processed

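The deposited table holds, per the file headers, the average bead intensity of every probe on every array (linear scale), the standard error of that signal, the bead number and the detection p-value. A second deposited table by the authors holds log2 values of 14533 probes, within 0.0280 to 0.0626 log2 of the levels computed here at most on any array and not centred, with a median of 5.81 per array. The submitters' processing notes name limma. Neither its version nor the scanner software is given in the sources used here.

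From the intensities, log2 levels were computed with the neqc function (limma 3.58.1, R 4.3.3), which corrects background by normexp using the detection p-values, adds an offset of 16 and normalises by quantiles. A probe entered the test when 2 or more of the 8 arrays had a detection p under 0.01, which left 11047 probes of 8106 genes. The test used lmFit, eBayes and Benjamini-Hochberg adjustment over all of them. Matched combinations of the other factors entered as 4 blocks, which left 3 residual degrees of freedom, or 2 where one set of pairs was compared with the other. The pairing follows the factors in the labels and no shared animal or replicate number. The p-values measure the spread between matched combinations, not between mice, and precision is limited by how few arrays there are.

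Symbols were matched to the RefSeq gene table of GRCm38.p6: 20736 probes by current and 3841 by older symbols, and 1120 not matched. All probes of the 9 members are described. Of other signalling genes, those called by their brightest probe are named, at most 4 per list and comparison with the largest differences (some of these are not reported here), and the 5 genes most like a member profile. A probe not detected on an array has only a bound there, computed from the lowest detected level of that array. The members and lists were chosen with earlier results of these data known. Alternatives were other background correction, normalisation, filters, model and prior, the deposited log2 table, and each pair left out. The scripts were tested on simulated data.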

Additional observations from a re-analysis of the deposited data

Results flagged for a closer look

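Each member probe has 4 pair differences per comparison, and 42 such sets were examined for a pair lying far from the other 3 by Dixon's test. Of these, 7 sets held one, where chance gives about 1 in 20 sets, and all 7 were pairs with a stimulated CD25High array. The knockout stimulated CD25High array was in 5 of them and the wild-type one in 5, since the genotype pair, which makes up 3, holds both. All 7 came from the probe of Cd3g, ILMN_1253828 of Cd247 and ILMN_2890954 of Sit1. The comparisons reuse the same arrays, so the sets are not independent and 1 unusual value can flag several of them.

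Between genotypes the CD25High stimulated pair had -4.92 for ILMN_1253828 of Cd247, against -0.74 to -0.21 in the other pairs, 0.602 for Cd3g, against -0.07 to 0.01, and 0.452 for ILMN_2890954 of Sit1, against -0.12 to -0.04. For Cd3g and Sit1 the wild-type array of that pair had the lowest level of all 8. For the same Cd247 probe the knockout CD25High pair had -4.89 after stimulation, and the knockout stimulated pair had -5.64 between populations. The probe was not detected on the knockout CD25High stimulated array, so these 3 Cd247 differences hold only as bounds, at least 27.0-fold, 26.5-fold and 44.6-fold lower. The other 2 sets were of ILMN_2890954 of Sit1: -2.1 after stimulation in wild-type CD25High cells, against -1.64 to -1.56, and -1.49 between populations in stimulated wild-type cells, against -1.03 to -0.99.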

How the results depend on the processing

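Sit1 kept its direction after stimulation and between populations under every alternative run, with -1.11 to -1.82 and -1.01 to -2.18 for its 2 probes after stimulation outside the settings that leave out a pair. Leaving out a pair gave 0 to 4 member probes called after stimulation and 1 to 3 between populations, with 0 to 2515 and 231 to 1335 of all probes tested called. Between populations 1 member probe was called with no filter on dim probes and 1 with probes detected on all arrays, where the second Sit1 probe was not tested. Without a filter 1162 of all probes were called after stimulation and 558 between populations, against 1771 and 916 with it, and 9 and 0 of the other signalling genes, against 15 and 3.

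For genotype 0 member probes were called under every alternative. Leaving out a pair gave 0 to 4 calls for its difference between populations, 0 to 4 between stimulation states and 0 to 5 for the difference in stimulation between populations. The 4, 4 and 5 calls arose where the knockout CD25High stimulated array and its partner alone made up one side of the difference. They were of Cd247 ILMN_1253828, Zap70 ILMN_1223542 and Ptprcap in all 3, with Cd247 ILMN_2828172 in the genotype tests and Cd3e and Sit1 ILMN_1258509 in the last. Ptprcap was also the 1 call for stimulation between populations without the knockout CD25High pair. In each of these fits the lone pair is assumed to vary like the others. The fit with no pair block moved no member call.

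Small differences changed sign: Sit1 ILMN_2890954 between genotypes under cyclic loess (-0.046, against 0.053) and Zap70 ILMN_2513870 after stimulation under median scaling (-0.011, against 0.029). Leaving out a pair turned Cd3g (-0.040 to 0.18), Cd247 ILMN_1256639 (-0.046 to 0.14) and ILMN_2828172 (-0.13 to 0.26), Sit1 ILMN_2890954 (-0.080 to 0.11) and Zap70 ILMN_3005740 (-0.035 to 0.098) between genotypes. After stimulation it turned Zap70 ILMN_3005740 (-0.17 to 0.12) and ILMN_2513870 (-0.063 to 0.14) and Cd247 ILMN_1256639 (-0.14 to 0.084) and ILMN_2828172 (-0.37 to 0.0010). Median scaling moved the median of all probes between populations to 0.11, against -0.03, and for the genotype difference between populations to 0.30, against 0.06. The cause of these changes was not tested. The alternatives for the other signalling genes were chosen after seeing the data.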
